A study of Mus musculus with 24 samples.

Results

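The genes described here are 9 genes of the mouse: the AP-1 genes Fos, Fosb, Fosl2, Jun, Junb and Jund, and the rapid activity genes Arc, Npas4 and Ier2. They were chosen by name, with no measured value in the rule, from the 55417 genes of the deposited count table, and all 9 were found in it. Earlier results of these data were known when the choice was made. AP-1 is a dimer of a Fos protein with a Jun protein that binds DNA and switches on further genes. In neurons, firing and calcium entry start transcription of most of these genes through kinases and the factors CREB, SRF and MEF2 already in the nucleus. Transcripts of most of the 9 decay quickly, so that their level follows recent activity. Jund is expressed more steadily in resting cells. Arc acts at the synapse, where it takes part in the removal of AMPA-type glutamate receptors, Npas4 is a neuronal transcription factor switched on by calcium, and Ier2 is a nuclear protein of the same immediate early class.

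The RNA came from subdissected entorhinal cortex, the main gateway between neocortex and hippocampus, of mice aged 2 to 4 months. All animals, controls included, carried the same genotype, tg/tg, from crossing Nop-tTA Line S with TRE-GlyCl-YFP Line 9531, in which the tTA driver switches on GlyCl, a chloride channel whose opening silences a neuron, with a yellow fluorescent protein. The Nop-tTA driver is known for expression in superficial neurons of the entorhinal cortex, so a part of the cells in each dissected piece carried the channel, and less RNA per cell cannot be told apart from fewer cells. The 4 groups were vehicle and 1, 2 and 3 days after activation of GlyCl, with 6 libraries each, 4 from females and 2 from males in vehicle and 3 of each sex on every day. The labels used here do not give the activating agent, the time at which vehicle animals were collected, or the interval between handling and dissection.

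The libraries held 16621659 to 23667449 counted reads. Summed markers of excitatory neurons lay between 5368 and 6123 counts-per-million (CPM) and those of superficial entorhinal neurons between 413 and 482 CPM, so both were present in every library. The choroid plexus gene Ttr exceeded 100 CPM in 8 libraries, 1 of vehicle, 2 of day 1, 2 of day 2 and 3 of day 3. CPM here are scaled to all reads counted in a library. The same 9 libraries, drawn from all 4 groups, were the lowest for 5 of the 9 genes, as described after the comparisons of the groups.

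The promoters show which of the genes carry a cAMP response element core, the letters TGACG to which CREB binds, close to the start. RefSeq promoter entries (GRCm38.p6) were found for 7 of the 9 genes, and Arc and Ier2 had none. The 250 bases before the start are printed for the 4 genes that held TGACG on either strand, with that core in capitals, read on the gene's own strand: Fos at chr12:85473640-85473889 (plus strand), Fosb at chr7:19310046-19310295 (minus strand), Junb at chr8:84978749-84978998 (minus strand) and Npas4 at chr19:4989972-4990221 (minus strand). In Fos the capitals also mark TATAAA, the TATA box, and in Npas4 the core appears once as CGTCA, its reverse complement.
Fos: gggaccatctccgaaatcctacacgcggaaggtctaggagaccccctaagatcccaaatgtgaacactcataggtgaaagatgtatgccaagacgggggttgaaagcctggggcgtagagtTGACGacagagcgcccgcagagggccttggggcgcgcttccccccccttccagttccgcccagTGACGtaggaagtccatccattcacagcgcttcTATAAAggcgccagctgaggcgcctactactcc
Fosb: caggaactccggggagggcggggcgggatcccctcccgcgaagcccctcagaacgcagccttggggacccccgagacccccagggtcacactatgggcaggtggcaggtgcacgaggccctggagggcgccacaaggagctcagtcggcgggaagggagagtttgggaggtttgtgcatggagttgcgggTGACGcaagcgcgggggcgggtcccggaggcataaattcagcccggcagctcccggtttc
Junb: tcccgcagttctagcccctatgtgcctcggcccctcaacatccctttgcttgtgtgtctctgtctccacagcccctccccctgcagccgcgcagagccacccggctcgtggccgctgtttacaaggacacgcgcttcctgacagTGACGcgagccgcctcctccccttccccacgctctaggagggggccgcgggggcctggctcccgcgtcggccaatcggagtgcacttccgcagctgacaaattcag
Npas4: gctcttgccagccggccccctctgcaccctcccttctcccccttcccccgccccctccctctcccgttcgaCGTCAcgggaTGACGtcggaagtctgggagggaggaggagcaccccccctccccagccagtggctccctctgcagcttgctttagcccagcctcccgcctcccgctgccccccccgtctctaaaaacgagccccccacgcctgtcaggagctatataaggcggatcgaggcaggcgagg

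Fos held 2 cores, 62 to 66 and 125 to 129 bases before the start, and its TATAAA lay 28 to 33 bases before it. Fosb held 1 core at 56 to 60 bases and Junb 1 at 102 to 106 bases. Npas4 held 2 cores 165 to 169 and 175 to 179 bases before the start, on opposite strands. No other gene of the 7 held TGACG, which occurred in 17.8% of 32851 RefSeq promoters of the same length. TATAAA on the sense strand was found in Fos alone of the 7 and in 7.59% of all promoters. The 8-letter element TGACGTCA and the AP-1 site TGANTCA, both strands searched, were in 0 of the 7 genes, against 1.55% and 6.75% of all promoters. The CArG box bound by SRF was also in 0 of 7 (1.47% of all), and the MEF2 site was in Jun alone (0.508% of all). These are matches of letters within this window and were not tested for binding.

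In vehicle, the level per length of exon differed widely between the genes. Mean CPM per kilobase of exon was 71.6 ± 42.4 (SD, n = 6) for Arc and 45.8 ± 18.5 for Junb. Jund, at 29.0 ± 2.89 CPM per kilobase, and Jun, at 27.2 ± 2.81, differed by less than their SD. Fos followed at 14.9 ± 6.94 CPM per kilobase. Ier2 (7.91 ± 4.43), Fosl2 (6.75 ± 1.56), Npas4 (6.02 ± 4.72) and Fosb (4.44 ± 1.304) came last, and each of these differed from its neighbour in that order by less than the larger of their SDs. The order of Arc and Junb was also within the SD of Arc. Exon lengths were taken from GENCODE M21 on GRCm38, which is not the build of the counts.

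None of the 9 genes passed the test in any of the 6 comparisons between groups, and no gene had groups that did not overlap. This was edgeR's quasi-likelihood test with sex as a term, on 16767 genes that passed a filter on low counts, with Benjamini-Hochberg adjustment over all of them and a threshold of 0.05. All 9 genes passed that filter. On day 1 against vehicle 0 of 9 were called, where 0.0656% of all genes tested were, and 0 of 9 had groups without overlap, against 0.632%. On day 2 against vehicle the counts were 0 and 0, against 0.0656% and 0.298% of all genes. On day 3 against vehicle they were 0 and 0, against 0.614% and 0.74%. Between days, the same 2 counts were 0 and 0 from day 1 to day 2 (0.0119% and 0.155% of all genes), from day 2 to day 3 (0.131% and 0.328%) and from day 1 to day 3 (0.65% and 0.829%). The test of all days jointly against vehicle called 0 of 9, against 0.644% of all genes, and its smallest adjusted p among the 9 was 0.353, for Fosl2. At an unadjusted p below 0.05, 2 of the 9 stood out on day 1 (7.25% of all genes did), 0 on day 2 (5.2%), 0 on day 3 (5.64%), 2 from day 1 to day 2 (4.25%), 0 from day 2 to day 3 (4.94%) and 1 from day 1 to day 3 (8.39%). DESeq2 and limma voom on the same genes also called 0 of 9 in each of the 6 comparisons.

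The log2 fold changes of the 9 genes had a median of -0.14 on day 1, 0.13 on day 2 and 0.03 on day 3 against vehicle, beside medians of 0.00112, 0.000586 and -0.00162 over all genes. On day 1, 7 of the 9 lay below 0, and on days 2 and 3 it was 3 of 9. All 9 were above 0 from day 1 to day 2. Of all genes tested, 50.6%, 50.3% and 49% lay above 0 on days 1, 2 and 3, and 51.6% from day 1 to day 2. The comparisons share libraries, so these counts are not independent of each other. Several of the 9 genes also vary together between libraries, so they are not separate observations.

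**Figure D1:**
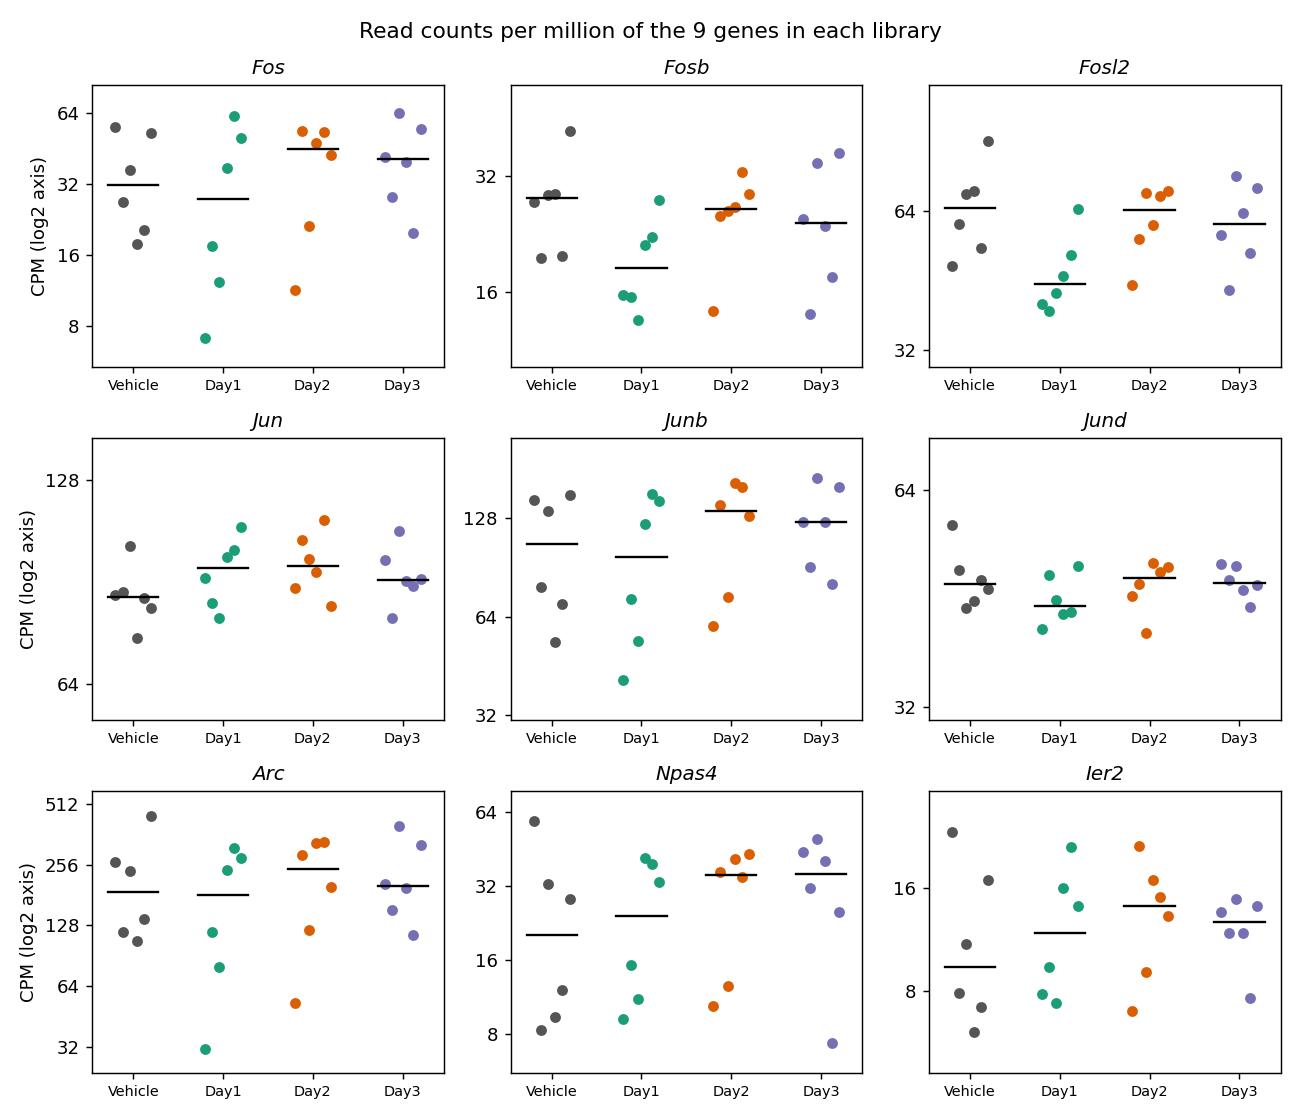
CPM of each of the 9 genes in the 24 libraries (vertical log2 axis, points are libraries, bars are group medians, 6 libraries per group). Within a group the highest library is 3.15 to 9.93 times the lowest for Fos, Arc and Npas4 and 1.15 to 1.37 times for Jun and Jund, and the groups overlap for every gene.

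Of the Fos family, Fosl2 (also called Fra-2, a slower and longer-lived partner of Jun proteins) came closest to the threshold. Fosl2 lay between 48.6 and 90.5 CPM in vehicle (median 64.7) and between 38.9 and 64.6 CPM on day 1 (median 44.4). It lay between 44.2 and 70.4 CPM on day 2 (median 64.3) and between 43.2 and 76.1 CPM on day 3 (median 59.9). Most day 1 libraries were therefore at the bottom of the vehicle range or under it, yet the highest day 1 library was level with the middle of vehicle. The log2 fold change on day 1 was -0.51 ± 0.14 (SE; 95% interval -0.79 to -0.22, adjusted p = 0.202 by edgeR). On day 2 the log2 fold change of Fosl2 from vehicle was -0.12 ± 0.14 (interval -0.40 to 0.16) and on day 3 it was -0.16 ± 0.14 (interval -0.44 to 0.12). From day 1 to day 2 it was 0.39 ± 0.14 with an interval of 0.10 to 0.67, and the adjusted p of edgeR was 1.00.

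Fosb, whose short splice form is the long-lived delta-FosB protein, was placed much like Fosl2. Fosb lay between 19.6 and 41.9 CPM in vehicle (median 28.03) and between 13.5 and 27.8 CPM on day 1 (median 18.5). On day 2 it lay between 14.3 and 32.9 CPM (median 26.4) and on day 3 between 14.03 and 36.8 CPM (median 24.25). The day 1 libraries included the lowest of all 24, and their highest reached no further than the vehicle median. On day 1 the log2 fold change was -0.56 ± 0.20 (SE; interval -0.97 to -0.15) and the adjusted p of edgeR 0.432. The gene's splice forms were counted together.

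Fos itself, the family's most widely used mark of recent firing, ranged so widely that no day could be set apart. Fos lay between 17.8 and 56.1 CPM in vehicle (median 31.8) and between 7.07 and 62.0 CPM on day 1 (median 27.5). On day 2 it lay between 11.3 and 53.6 CPM (median 44.96) and on day 3 between 19.7 and 64.0 CPM (median 40.7). Each group held libraries at both ends, and the day 1 group held the lowest library of all 24 as well as the next to highest. The log2 fold change of Fos was -0.18 ± 0.39 on day 1 (interval -0.99 to 0.63), 0.13 ± 0.39 on day 2 (interval -0.67 to 0.94) and 0.21 ± 0.39 on day 3 (interval -0.59 to 1.01). The 3 intervals all held 0 and were wide.

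Of the Jun family, Junb, itself an immediate early gene and a weak activator among the Jun proteins, was as mixed as Fos. Junb lay between 53.6 and 150.3 CPM in vehicle, between 40.95 and 151.0 CPM on day 1, between 60.1 and 163 CPM on day 2 and between 80.4 and 170.0 CPM on day 3. Its log2 fold change was -0.14 ± 0.29 on day 1 (interval -0.73 to 0.45), 0.20 ± 0.29 on day 2 (interval -0.39 to 0.78) and 0.21 ± 0.29 on day 3 (interval -0.38 to 0.80). Jun, the usual partner of Fos, stayed between 74.9 and 112 CPM over all 24 libraries. Its intervals were narrow: the log2 fold change was 0.09 ± 0.08 on day 1 (interval -0.07 to 0.25), 0.14 ± 0.08 on day 2 (interval -0.02 to 0.30) and 0.07 ± 0.08 on day 3 (interval -0.09 to 0.23). Jund, the member expressed most steadily in resting cells, lay between 40.6 and 57.3 CPM over all libraries, and its log2 fold change was -0.12 ± 0.06 on day 1 (interval -0.25 to 0.01), -0.05 ± 0.06 on day 2 (interval -0.18 to 0.08) and -0.04 ± 0.06 on day 3 (interval -0.17 to 0.09). For Jun and Jund these intervals therefore left out any change from vehicle of more than 0.30 on the log2 scale.

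Arc, the synaptic effector of the group, had the highest single values. Arc lay between 107.5 and 448 CPM in vehicle (median 188) and between 31.3 and 311 CPM on day 1 (median 180.5). On day 2 it lay between 53.0 and 331 CPM (median 242.5) and on day 3 between 114 and 397 CPM (median 201). The 6 day 1 libraries alone spanned 9.93-fold and held the lowest of all 24, while the highest of all was a vehicle library. Its log2 fold change was -0.34 ± 0.42 on day 1 (interval -1.20 to 0.53), 0.05 ± 0.42 on day 2 (interval -0.82 to 0.91) and 0.03 ± 0.42 on day 3 (interval -0.83 to 0.90).

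Npas4, the calcium-driven factor, lay between 8.28 and 59.0 CPM in vehicle (median 20.1) and between 9.20 and 41.7 CPM on day 1 (median 24.2). On day 2 it lay between 10.4 and 43.4 CPM (median 35.6) and on day 3 between 7.30 and 49.9 CPM (median 35.9). Every group held at least 1 library at or below 10.4 CPM and at least 1 at or above 41.7 CPM. The log2 fold change of Npas4 was -2.02e-05 ± 0.46 on day 1 (interval -0.93 to 0.93), 0.26 ± 0.45 on day 2 (interval -0.66 to 1.19) and 0.40 ± 0.45 on day 3 (interval -0.52 to 1.317). Ier2 lay between 6.08 and 23.2 CPM over all libraries, and its log2 fold change from vehicle was 0.07 ± 0.29 on day 1 (interval -0.52 to 0.66), 0.20 ± 0.29 on day 2 (interval -0.39 to 0.79) and 0.02 ± 0.29 on day 3 (interval -0.57 to 0.61).

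**Figure D2:**
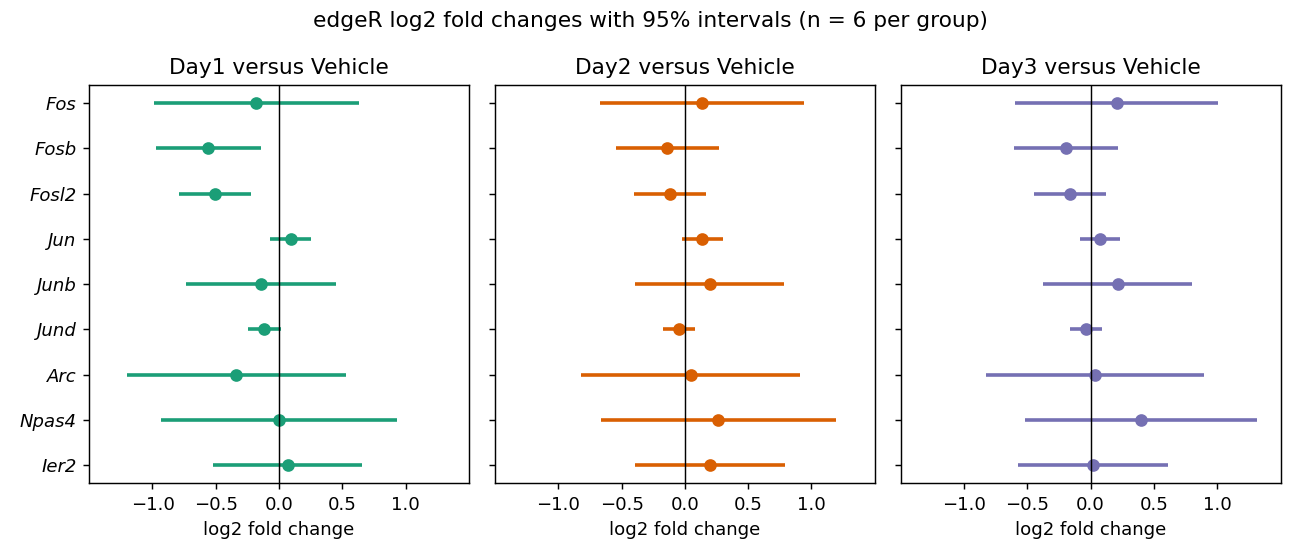
Log2 fold change of each gene on day 1, 2 and 3 against vehicle (horizontal axis), points with 95% intervals from edgeR, 6 libraries per group. Fosb and Fosl2 on day 1 are the 2 intervals that end below 0 (-0.97 to -0.15 and -0.79 to -0.22), and neither passed after adjustment.

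The spread between libraries of the same group separated the 9 genes more than the days did. Npas4 had a residual SD of 1.04 on the log2 CPM scale with group and sex removed, Arc 0.99 and Fos 0.91, against a median of 0.14 over all genes tested. These values ranked 41, 47 and 58 among 16767 genes, from the most variable. Junb (0.64) and Ier2 (0.60) were also more variable than 97.5% and 96.6% of genes, and Fosb (0.43) and Fosl2 (0.29) than 87.6% and 75.1%. Jun (0.16) and Jund (0.12) were close to the median gene. The share of the variance in log2 CPM between the 4 groups was taken without removing sex. It was 31.5% for Fosl2 and 19.4% for Fosb. For Jun (12.6%) and Jund (14.05%) it was near the 10.99% of the median gene. For Fos, Junb, Arc, Npas4 and Ier2 the share was 2.79% to 9.39%, below that of the median gene.

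**Figure D3:**
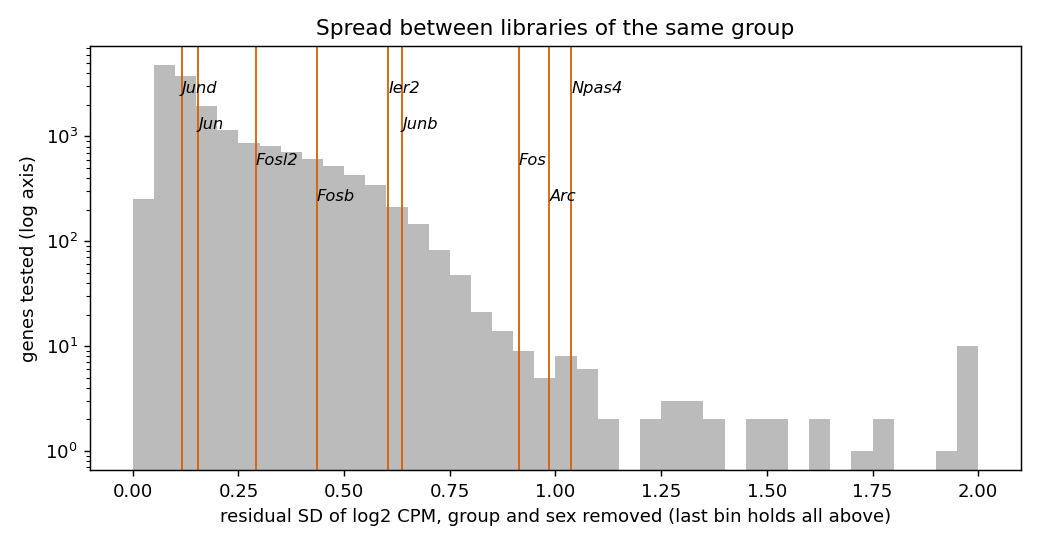
Number of genes tested (log axis) by residual SD of log2 CPM between libraries, with group and sex removed, and the 9 genes as vertical lines. Npas4 (1.04), Arc (0.99) and Fos (0.91) lie far in the upper tail, and Jund (0.12) and Jun (0.16) lie close to the median of 0.14.

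The same libraries were low for several of these genes, and they came from every group. Npas4 had its largest gap, of 0.71 on the log2 scale, between 15.25 and 25.02 CPM, with 9 libraries below it and 15 above. The 9 libraries lowest for Npas4 were also the 9 lowest for Fos (highest of them 26.8 CPM, next library 28.3 CPM), Junb (80.4 and 90.7 CPM), Arc (137 and 152 CPM) and Ier2 (9.41 and 10.95 CPM). These 4 genes had no such gap there: their largest gaps lay elsewhere, above 1 library for Fos (0.68) and Arc (0.76), above 10 for Junb (0.44) and above 21 for Ier2 (0.31). For Fosb, Fosl2, Jun and Jund the same 9 libraries overlapped with the other 15. The 9 came from every group: 3 of 6 vehicle libraries, 3 of 6 from day 1, 2 of 6 from day 2 and 1 of 6 from day 3. They held 5 females and 4 males, 2 of the 8 Ttr-rich libraries, and totals of 17996975 to 23437076 reads, against 16621659 to 23667449 in the other 15. Animal numbers fall into 7 series by their leading digits, and each series had libraries in both sets. The 2 sets were read off the values of Npas4 alone and are not groups of the study, so no test was made between them.

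**Figure D4:**
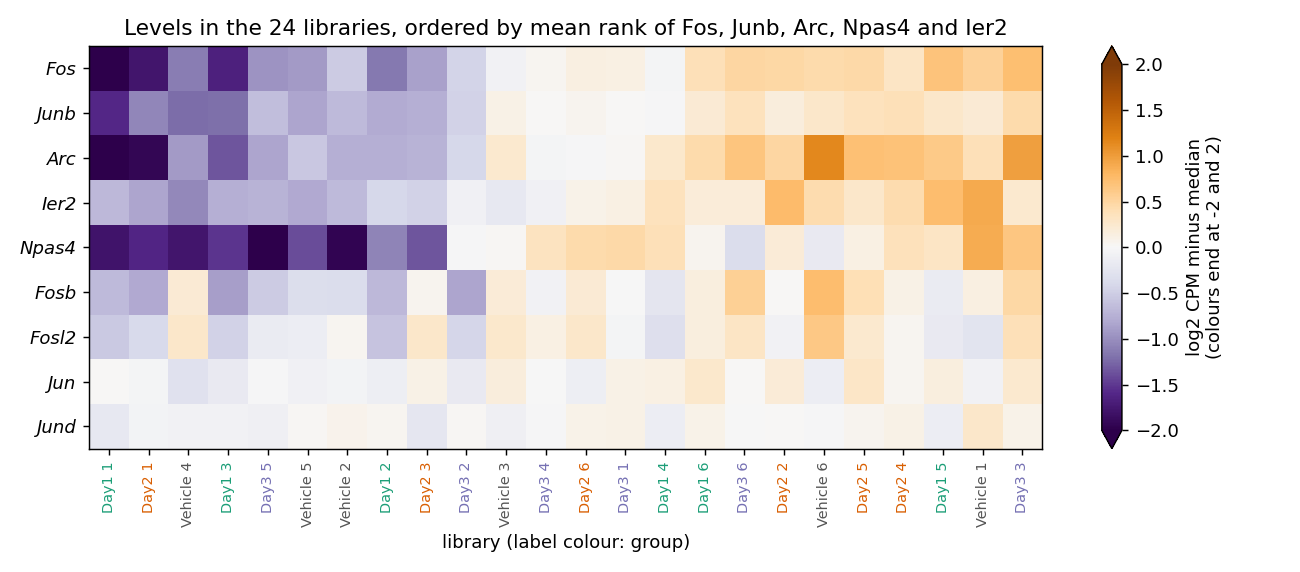
Log2 CPM of each gene minus its median over 24 libraries (colour), libraries ordered by the mean rank of Fos, Junb, Arc, Npas4 and Ier2 and labelled in their group's colour. The 9 libraries at the left are low in these 5 genes together and come from all 4 groups, and Vehicle 4, one of these 9, is at the same time above the median for Fosb and Fosl2.

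Single libraries showed how far the genes kept together. The first day 1 library was the lowest of all 24 for Fos (7.07 CPM), Junb (40.95 CPM) and Arc (31.3 CPM). The third day 3 library was the highest for Fos (64.0 CPM) and Junb (170.0 CPM). Vehicle libraries held other extremes: the first was the highest for Npas4, Ier2 and Jund, and the sixth for Arc, Fosb and Fosl2. The fourth vehicle library was the lowest of all for Ier2 and Jun and lay in the low set for Fos, yet was above the median for Fosb and Fosl2.

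The 2 sets come from a cut at the largest gap of Npas4, chosen after seeing the data. Whether the libraries form separate clusters was not tested. Relations between genes were measured within each set, on log2 CPM with group, sex and set removed. The permutations exchanged the values left after that removal, so their p-values are approximate. Within the 9 low libraries, Fos followed Junb (Pearson's r = 0.907, permutation p = 0.00032, adjusted p = 0.0046 over 72 relations). Spearman's rho of this pair was 0.917 (permutation adjusted p = 0.0189). Fos with Arc gave r = 0.931 (permutation adjusted p = 0.00782) and rho = 0.783 (adjusted p = 0.177), and r = 0.683 without the 2 libraries farthest from the median of Fos. Junb with Arc gave r = 0.85 (permutation adjusted p = 0.00747) and rho = 0.833 (adjusted p = 0.0992). By rank, then, 1 of these 3 pairs passed in the 9 libraries. Within the 15 other libraries the same 3 genes gave r = 0.851 for Fos with Junb, 0.811 for Fos with Arc and 0.841 for Junb with Arc (permutation adjusted p = 0.00264, 0.00288 and 0.00264). Their rho was 0.861, 0.793 and 0.861 (permutation adjusted p = 0.0036, 0.0104 and 0.0036). Without the 2 farthest libraries the r of these 3 was 0.697, 0.693 and 0.79.

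Fosb with Fosl2 was the other pair whose r passed in both sets, though not by rank in the 9 libraries. Their r was 0.889 in the 9 libraries (permutation adjusted p = 0.0216) with rho = 0.75 (adjusted p = 0.194) and 0.859 in the 15 (permutation adjusted p = 0.00264) with rho = 0.85 (adjusted p = 0.0036). Fosb also followed Junb (r = 0.75, permutation adjusted p = 0.0227) and Arc (r = 0.686, permutation adjusted p = 0.0242) within the 15 libraries, but by rank neither passed (rho = 0.579 and 0.579, adjusted p = 0.194 and 0.194). Without the 2 libraries farthest from the median of Fosb, the r of these 2 pairs fell to 0.436 and 0.407. Leaving out such libraries also narrows the range. In the 9 libraries the r of these 2 pairs was 0.0601 and 0.34.

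For Npas4 the split itself took out most of the range, so its values within the sets do not show how closely it followed the other genes, and none is read here. Fos, Junb, Arc and Ier2 had the same 9 lowest libraries, so the split narrowed their range as well. Ier2 gave r = 0.627 with Fos in the 9 libraries (permutation adjusted p = 0.277) and 0.516 in the 15 (permutation adjusted p = 0.218). These values do not show how closely Ier2 followed Fos over all libraries. In all, 4 of 36 pairs, those with Npas4 included, had an adjusted p of Pearson's r below 0.05 in the 9 libraries and 6 of 36 in the 15. Without the Ttr-rich libraries, 7 and 9 libraries were left and 1 pair passed in each set. In the low set that pair was 1 of the 10 among Fos, Junb, Arc, Npas4 and Ier2. In the other set 0 of these 10 passed, with r from -0.525 to 0.846, so no pair of Fos, Junb and Arc passed there.

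**Figure D5:**
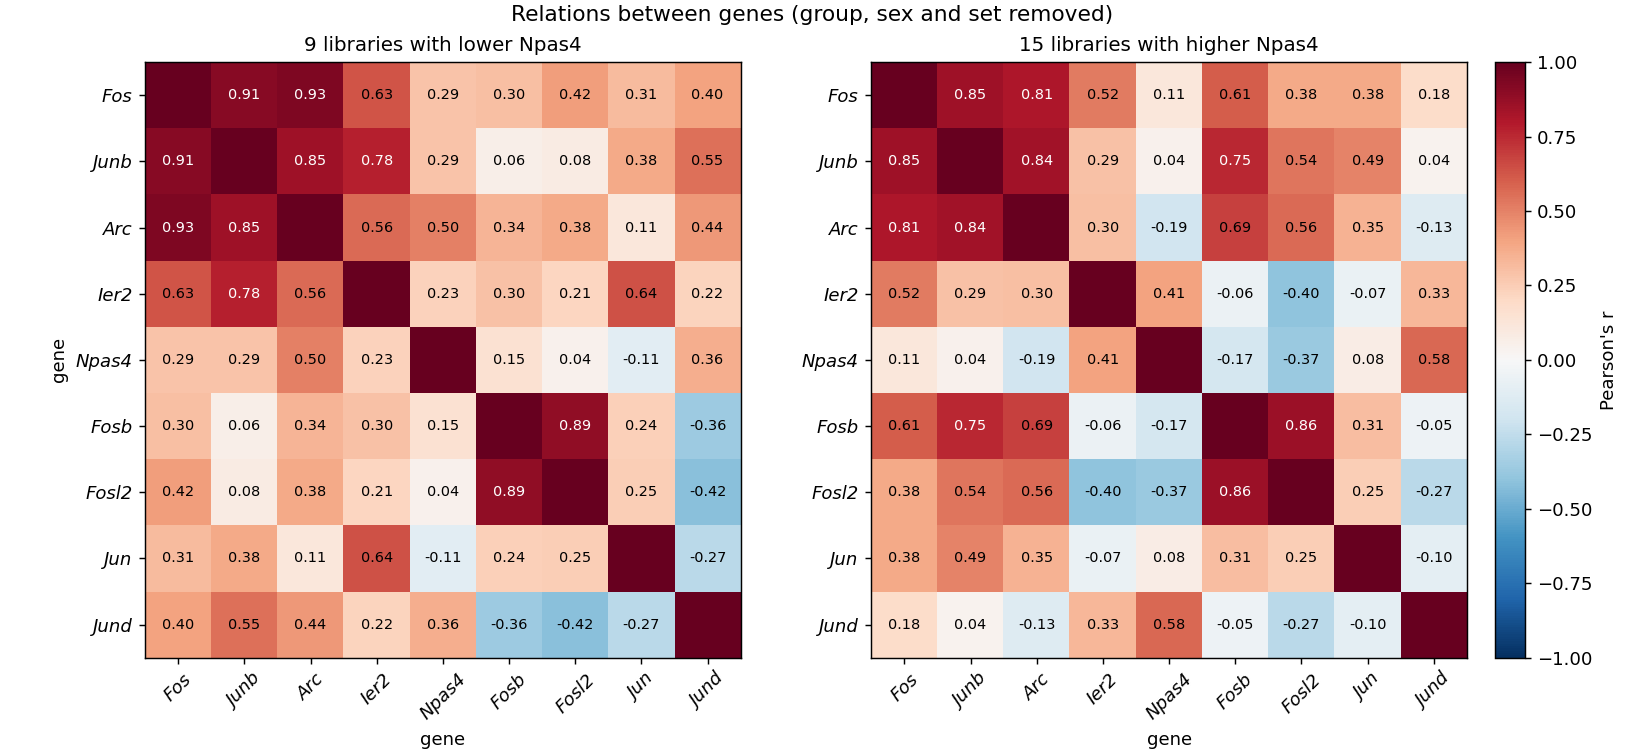
Pearson's r between the 9 genes within the 9 libraries of lower Npas4 (left) and the 15 of higher Npas4 (right), on log2 CPM with group, sex and set removed. Fos, Junb and Arc (0.81 to 0.93) and Fosb with Fosl2 (0.89 and 0.86) stand out in both. The row and column of Npas4 are restricted by the split, which was made on Npas4. The split also narrowed the range of Fos, Junb, Arc and Ier2.

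Of the 10 genes most like Fos across libraries, all but 1700016P03Rik were on the list of 37 other immediate early genes. The 10 with the highest r over all libraries were Dusp1, Egr1, Egr2, Nr4a1, Egr4, Dusp6, Arl4d, Ccn1, Btg2 and 1700016P03Rik, of which Dusp1 and Dusp6 encode phosphatases that switch off MAP kinases, Egr1, Egr2 and Egr4 zinc finger factors, and Nr4a1 an orphan nuclear receptor. Within the 9 and the 15 libraries, r with Fos was 0.967 and 0.868 for Egr2, 0.941 and 0.801 for Egr1, and 0.892 and 0.821 for Dusp1. It was lower for Ccn1 (0.679 and 0.627) and 1700016P03Rik (0.546 and 0.607). Of 37 other immediate early genes, 10 had r above 0.8 with Fos in the 9 libraries and 4 in the 15, where the median over the 37 was 0.599 and 0.473. Over all 16766 other genes the median was 0.0212 and -0.00305, and 132 (0.787%) and 6 (0.0358%) had r above 0.8 with Fos. Among the 37 these shares were 27% and 10.8%.

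The other genes had partly different company. Arc was most like Dusp1, Egr1 and Egr2 (r = 0.931, 0.989 and 0.953 in the 9 libraries, 0.894, 0.755 and 0.943 in the 15), and Junb most like Dusp1, Nr4a1 and Egr1. Fosl2 was most like Midn, Irs2 and Nr4a3 (r = 0.778, 0.913 and 0.784 in the 9 libraries, 0.91, 0.882 and 0.932 in the 15). Fosb was most like Egr4, Apold1 and Nr4a1 (r = 0.617, 0.753 and 0.287 in the 9 libraries, 0.926, 0.705 and 0.813 in the 15). Ier2 was most like Ccn1, Btg2 and Dusp1. For Npas4 the 3 genes over all libraries were Gadd45g, Ccn1 and Dusp1. Within the sets their likeness to Npas4 was uneven (r = 0.02, 0.78 and 0.484 in the 9 libraries, 0.744, 0.51 and -0.0224 in the 15). The split on Npas4 restricts these values. Jun was most like Trpa1, Spon1 and Amph, and Jund like Hba-a1, a haemoglobin gene, Washc3 and Suox. All values in these lists share the same libraries and were picked from many genes, and they carry no test.

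Fos and Fosl2 were also set against 11 marker lists, the library total and the fluorescent transgene EYFP, within each set. Of these 52 relations, 0 passed the permutation test after adjustment, 3 had an unadjusted p below 0.05, and the smallest adjusted p was 0.309. In the 9 libraries the 3 included Fos with EYFP (r = -0.757) and Fosl2 with red blood cell transcripts (r = -0.774). The other was Fosl2 with interneuron markers (r = -0.626) in the 15. The split narrowed the range of Fos, so these values do not show whether any marker followed Fos over all libraries.

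Among the other genes of the pathway, from 5 lists of 99 genes of which 96 were tested, Egr3, Elk1 and Atf3 passed in at least 1 comparison. These lists were chosen with earlier results of these data known. Against vehicle, 1 was called higher and 1 lower on day 1 (0.0656% of all genes were called), 1 higher on day 2 (0.0656%) and 1 higher on day 3 (0.614%). Between days, 0 were called from day 1 to day 2 (0.0119%) and from day 2 to day 3 (0.131%), and 1 higher and 1 lower from day 1 to day 3 (0.65%). Egr3, a zinc finger factor of the Egr family, fell on day 1 by 0.74 ± 0.12 on the log2 scale (SE, adjusted p = 0.00602 by edgeR), from 188 to 304 CPM in vehicle to 117 to 175 CPM on day 1, with no overlap. Elk1, a kinase-activated partner of SRF, rose on day 1 by 0.27 ± 0.05 (adjusted p = 0.0170 by edgeR), a call lost without vehicle library 1, 4 or 6 or day 1 library 1 or 4 (adjusted p = 0.0599, 0.0593, 0.125, 0.0515 and 0.0691 by edgeR). From day 1 to day 3 Egr3 rose by 0.51 ± 0.12 (adjusted p = 0.0291 by edgeR) and Elk1 fell by 0.23 ± 0.05 (adjusted p = 0.0232 by edgeR). The first of these was lost without day 1 library 1, 3 or 4 or day 3 library 1, 3 or 6 (adjusted p = 0.0690 to 0.110 by edgeR), and the latter without day 1 library 4 or 6 or day 3 library 1, 5 or 6 (adjusted p = 0.0607 to 0.0823 by edgeR). Of 13 alternative analyses, the day 1 call of Elk1 was lost under 2 (adjusted p = 0.0514 without the Ttr-rich libraries and 0.0788 with only the groups compared). From day 1 to day 3 the call of Egr3 was lost under 4 (adjusted p = 0.124 to 0.320) and that of Elk1 under 1 (adjusted p = 0.101, without the Ttr-rich libraries). The day 1 call of Egr3 was lost under 0 of 13. Atf3, a stress-induced bZIP factor that pairs with Jun proteins, rose by 1.41 ± 0.29 on day 2 (adjusted p = 0.0499) and by 1.54 ± 0.28 on day 3 (adjusted p = 0.00265), both by edgeR. Its level was low, 0.254 to 0.843 CPM in vehicle, 0.898 to 1.74 CPM on day 2 and 1.02 to 1.89 CPM on day 3. The day 2 call of Atf3 was lost under 6 of 13 alternative analyses and on leaving out 19 of 24 single libraries (adjusted p = 0.0565 to 0.252 by edgeR), all but day 1 libraries 1 and 5, day 2 libraries 3 and 4 and vehicle library 6. Its day 3 call was lost under 1 of 13 (adjusted p = 0.0913, without the Ttr-rich libraries) and on leaving out 0 of 24.

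By list, the counts were as follows. Of 8 other AP-1 and related bZIP genes tested, 0 were called on day 1, and Atf3 alone on days 2 and 3. Of 37 other immediate early genes, Egr3 alone was called on day 1, 0 on day 2 and 0 on day 3. On day 1, 30 of these 37 lay below 0, with a median log2 fold change of -0.12, and Ier5, an Ier2 relative, was at -0.40 ± 0.09 (adjusted p = 0.0813 by edgeR). Of all genes tested, 50.6% lay above 0 on day 1. Many of the 37 followed Fos from library to library, so they are not separate observations. Of 13 late activity-regulated genes 0 were called on any day. Below 0 lay 11 of 13 on day 1 (median -0.19), 11 on day 2 (median -0.098) and 10 on day 3 (median -0.087). These days share the vehicle libraries, so the counts are not independent. Homer1 on day 1 was at -0.46 ± 0.10 (adjusted p = 0.0813 by edgeR). Of 28 upstream factors and kinases Elk1 alone was called, on day 1, and Srf was at -0.14 ± 0.04 (adjusted p = 0.272 by edgeR). Of 10 partners of Npas4 and Arc, 0 were called, and Camk2b on day 1 was at -0.07 ± 0.03 (adjusted p = 0.563 by edgeR). The difference between Egr3 and any of the 9 genes was not tested.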

How the data were processed

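RNA-seq counts of 24 entorhinal cortex libraries were used as deposited by the authors, as whole-number read counts per gene. The submitters' processing notes name fastp 0.23.1, STAR 2.7.9a, DESeq2 1.32.0 and the genome build mm39. Which tool counted the reads, with which annotation and strand setting, is not given in the sources used here. Hence reads of overlapping or antisense genes cannot be told apart. Libraries held 16621659 to 23667449 counted reads. Groups came from the treatment labels. Each library carries its own animal number, but the labels do not say in so many words that the libraries came from separate animals, so p-values measure the spread between these libraries. A chi-square comparison of 60 pairs of libraries of the same group gave ratios to sampling noise of 3.94 to 13.8, so none was counted as a duplicate.

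Genes were filtered with filterByExpr (minimum count 10, minimum total count 15), which left 16767 of 55417, scaled with TMM factors and tested with edgeR 4.0.16 in R 4.3.3 with group and sex in 1 fit over all 24 libraries (prior degrees of freedom 9.63). SEs were derived from the fold change and its F value, or from the Wald form for a change near 0. Log2 CPM for relations and spread used a prior count of 2. Relations were to be pooled over libraries unless these fell into separate sets. The libraries were taken as divided by Npas4, without a test for clusters, so no pooled value is given. A pooled r served only to pick the genes most like each member. The split at the largest gap of Npas4, the removal of the set and the measurement within sets were chosen after seeing the data. Permutations ran through every order for 9 libraries or fewer and were otherwise 100000 in number. They exchanged residuals freely across groups within a set, not within groups as first planned. Because group, sex and set had been fitted to these residuals, the p-values of relations are approximate. Named genes were the 9 members, up to 3 genes of each list with the smallest p over the 3 days jointly or with a call, the 10 genes most like Fos and the 3 most like each other member. The members, lists and rules were chosen with earlier results of these data known. The scripts were tested on simulated data. Alternatives used DESeq2 1.42.0, limma 3.58.1, other scalings and filters, no sex term, the leading digits of the animal number as a factor, fewer libraries and each library left out in turn.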

Additional observations from a re-analysis of the deposited data

How the results depend on the processing

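None of the 9 genes was called in the 6 comparisons under 12 of 13 alternatives (smallest adjusted p = 0.136) or in 24 fits that each left out 1 library (0 to 0 in every comparison, smallest adjusted p = 0.0714, for Fosl2 on day 1). The exception was edgeR with no filter on low counts, which called 3 on day 1, 2 on day 2 and 2 on day 3 against vehicle, 5 from day 1 to day 2 and 6 from day 1 to day 3. There the prior degrees of freedom became infinite and the SE of Arc fell from 0.42 to 0.0467. DESeq2 and limma voom without that filter, both chosen after seeing the data like robust edgeR, called 0. The sign of a member's change differed from the reported one in 30 values over the 13 alternatives and 76 over the 24 fits, none past the threshold in either. Of all genes, 11 were called on day 1: 75 by DESeq2, 79 by DESeq2 and 159 by edgeR without the filter, 31 with the animal number, and 4 to 28 without single libraries. On day 2, 11 became 18 by DESeq2, 17 by DESeq2 without the filter, 7 by limma voom with or without it, 86 by edgeR without it, 7 with a filter of 1 CPM, 2 without Ttr-rich libraries, 3 with only the groups compared, and 7 to 12 without single libraries. On day 3, 103 became 217 without the filter, 49 without Ttr-rich libraries and 72 to 110 without single libraries. From day 1 to day 2, 2 became 58 without the filter, 1 with 1 CPM, 0 with the animal number, 0 by limma voom without the filter, 1 without Ttr-rich libraries, 0 with only the groups compared and 0 to 2 without single libraries. From day 2 to day 3, 22 became 36 by DESeq2, 34 by DESeq2 and 79 by edgeR without the filter, 6 with the animal number, 6 without Ttr-rich libraries and 10 to 28 without single libraries. From day 1 to day 3, 109 became 295 without the filter, 53 with the animal number, 47 without Ttr-rich libraries and 44 to 117 without single libraries. Pairs of related genes went from 4 to 1 in the 9 libraries and from 6 to 1 in the 15 without the Ttr-rich libraries. In the 15, those among Fos, Junb, Arc, Npas4 and Ier2 went from 3 to 0. With the animal number also removed, 6 pairs passed in the 9 libraries and 7 in the 15. Of the 10 pairs among those 5 genes, 5 then passed in each set. Leaving out the Ttr-rich libraries also leaves fewer libraries. Otherwise the cause was not tested. No paired analysis was possible because the replicate numbers only follow the order of the records.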
